A study of Mus musculus with 16 samples.

Results

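DNA methylation was followed at the genes Sox17, Gata4, Foxa2 and Sall4 while mouse fibroblasts were reprogrammed with small molecules. The CpG sites were taken by position, in 4 windows of the mouse genome (build GRCm39). The windows were chromosome 1, 4557000 to 4571000 for Sox17, chromosome 14, 63432000 to 63513000 for Gata4, chromosome 2, 147880000 to 147893000 for Foxa2, and chromosome 2, 168586000 to 168614000 for Sall4. They held 1298 of the 3179510 sites listed in at least 1 library. Of these, 335 had at least 10 reads in each of the 16 libraries (873038 in the genome), and these common sites are compared below. Sox17 had 49 common sites, Gata4 152, Foxa2 54 and Sall4 80. Exons, introns and untranslated regions of GRCm39 were not analysed here, so a region is named by its position in the window, and only the Foxa2 window is tied to a transcription start below.

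All 4 genes encode transcription factors that bind DNA. Sox17, of the HMG-box family, and Gata4, a zinc finger factor, act in primitive and definitive endoderm, and Foxa2, a forkhead factor, acts in definitive endoderm and its derivatives. Sall4 is a zinc finger factor of pluripotent cells that is also made in extraembryonic endoderm. In chemical reprogramming, fibroblasts can pass through a stage that resembles extraembryonic endoderm (XEN) cells, in which these factors are made, before pluripotency is reached. Methylation of CpGs at a promoter is known as a mark of stable silencing, while CpG-rich promoters usually lack it whether or not the gene is active. RNA was not measured in these libraries, so nothing below says when the genes were expressed. Whether these cells passed through such a stage was not tested.

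The RefSeq promoter table, whose sequences come from GRCm38.p6, held a sequence for 1 of the 4 genes, Foxa2, with 3 promoters. They were placed on GRCm39 by the spacing of their CpGs. For 1 of the 3 a single position was found, chr2:147887819-147888118 on the minus strand, where 8 of its 23 CpGs matched a listed site and the next best position matched 0. It is shown because it is the only transcription start of the 4 genes that could be placed, and because it shows which letters were read. The 250 bases before the start site follow, with the CpGs that have a listed site in capitals.

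Foxa2: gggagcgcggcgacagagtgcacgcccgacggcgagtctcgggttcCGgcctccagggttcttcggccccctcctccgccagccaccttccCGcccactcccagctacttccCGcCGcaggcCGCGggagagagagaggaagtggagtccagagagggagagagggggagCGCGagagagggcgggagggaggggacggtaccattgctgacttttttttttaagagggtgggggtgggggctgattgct

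The 300 bases of the placed promoter, 250 before and 50 after the start, held 1 CCGG, the site cut by the enzyme MspI, and the motif was in 52.8% of the 32851 promoters of the table (CCGG reads the same on both strands). The 8 CpGs in capitals were listed in 1 library only, D8 replicate 1, with 10 reads each and 62.5% of the reads methylated, and in none of the other 15. By site the level ran from 30% (exact 95% binomial interval 6.67% to 65.2%) to 80% (44.4% to 97.5%). These intervals cover counting error only, and neighbouring sites may share the same reads. No change over time can be read from this promoter, and the nearest sites measured in all libraries are those of the tile that holds the start, described with Foxa2 below.

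The assay was reduced representation bisulfite sequencing (RRBS) of genomic DNA, which cuts DNA with MspI and reads the CpG-rich fragments after bisulfite has converted unmethylated cytosines. All 8 groups came from 1 strain, named 129XOG2, and the fibroblasts came from E13.5 embryos and were used at passages 1 to 3. OG2 mice carry a fluorescent reporter of the pluripotency gene Oct4. D0 is the mouse embryonic fibroblasts (MEFs), and D2, D4, D6, D8, D10 and D12 are the cells after that number of days in reprogramming medium, whose components the labels do not list. The iPSC group is induced pluripotent stem cells grown on feeder cells with LIF, 3 µM CHIR99021 (a GSK3 inhibitor) and 0.2 µM PD0325901 (a MEK inhibitor). The sources used here do not give the day on which they were picked or whether feeders were removed. Each group had 2 libraries. Nothing says that these came from separate cultures, so the p-values below reflect the spread of these libraries alone, and that spread may be technical.

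Libraries listed 1480222 to 2516218 sites with 39011213 to 107834007 summed reads and a median coverage of 18 to 27 reads, and the windows held between 610 sites (iPSC replicate 1) and 1098 (D0 replicate 1). Over all common sites of the genome the share of methylated reads was 55.9% at D0, 16.9% at D12 and 53.0% in iPSCs. Between the replicates of a group the Pearson r across all 1-kb tiles ran from 0.677 at D12 to 0.978 at D0, and the median gap from 2.84 points at D0 to 6.18 at D8, with 4.93 at D12. In bulk DNA an intermediate level does not tell cells that differ from each other apart from sites that differ within a cell.

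The 4 windows followed different courses. Sall4 was the most methylated, at 67.0% and 67.5% in the D0 libraries, and lost most of this by D12 (17.7% and 16.1%). Its iPSC libraries stood at 48.5% and 47.6%, above both D12 and below both D0 libraries. Gata4 was at 20.3% and 18.8% at D0, 7.80% and 8.75% at D12 and 27.6% and 28.6% in iPSCs, so its iPSC libraries lay above both other groups. At the common sites of Sox17 and Foxa2 the group means stayed under 10%. Sox17 was at 1.87% and 2.97% at D0, 9.26% and 4.55% at D12 and 7.12% and 2.87% in iPSCs, and Foxa2 was at 12.2% and 5.70%, 12.4% and 6.20%, and 9.80% and 7.24% in the same groups.

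**Figure D1:**
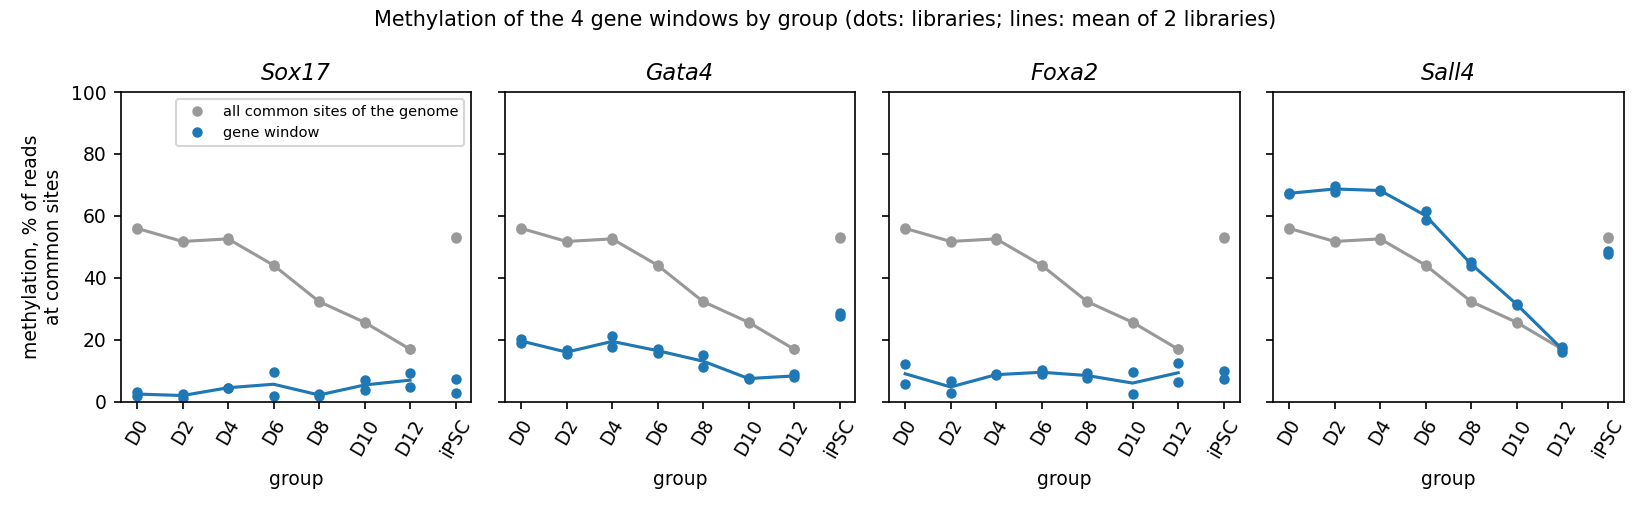
Share of methylated reads (%, vertical axis) at the common sites of each gene window by group (horizontal axis); dots are libraries, lines join the means of 2 libraries from D0 to D12, and grey is the same over all common sites of the genome. Sall4 falls from 67.3% at D0 to 16.9% at D12, Gata4 is higher in iPSCs (28.1%) than at D0 (19.6%), and the Sox17 and Foxa2 means stay under 10%.

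As differences of group means, Sall4 moved by -50.3 points ± 0.815 (SE, n = 2 against 2) between D0 and D12 and by -19.2 ± 0.495 between D0 and iPSCs. The genome-wide values were -39.0 ± 0.132 and -2.90 ± 0.179. At D0 all common sites stood at 55.9%, Sall4 at 67.3% and Gata4 at 19.6%, so these differences start from unlike levels. Window levels pool reads, and much of Sall4 came from its edge, 168586001 to 168587000, by a share that varied. This stretch gave 3795 of 8457 reads in D0 replicate 1, 3892 of 6442 in D12 replicate 2 and 755 of 2586 in iPSC replicate 2. Differences that weight each site alike are given at the end. For Gata4 the same differences were -11.3 ± 0.876 and +8.55 ± 0.890, and iPSCs lay 19.8 ± 0.689 above D12. For Sox17 they were +4.49 ± 2.42 and +2.57 ± 2.20, and for Foxa2 +0.322 ± 4.51 and -0.454 ± 3.52. These depended on the sites counted: over every listed site, which differ between libraries, D12 against D0 was +7.80 for Sox17 and +3.55 for Foxa2, and iPSC against D0 turned to -2.67 for Sox17 (-0.597 with merged strands). The libraries of the compared groups did not overlap in the Sall4 and Gata4 comparisons, nor in Sox17 at D12, and they overlapped in Foxa2. An exact two-sided permutation test of 2 against 2 libraries cannot go below p = 0.333, so no window comparison can pass a threshold by itself.

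For a test, each window was cut into tiles of 1 kb (1000 bases), named here by their first base, and a tile was tested when it held at least 3 common sites. This left 31 of the 63 tiles with any listed site: 2 in Sox17, 17 in Gata4, 4 in Foxa2 and 8 in Sall4. They were read out of a fit of 94337 tiles of the genome. A tile was called when edgeR's quasi-likelihood test gave a Benjamini-Hochberg adjusted p under 0.05 over all tiles and the means lay 10 percentage points or more apart. Loss of methylation needs methylation to start with. Of the 31 tiles, 13 were at 30% or more at D0 (6 in Gata4 and 7 in Sall4) and 18 were under 30%, so both classes are read against all tiles of their own class.

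**Figure D2:**
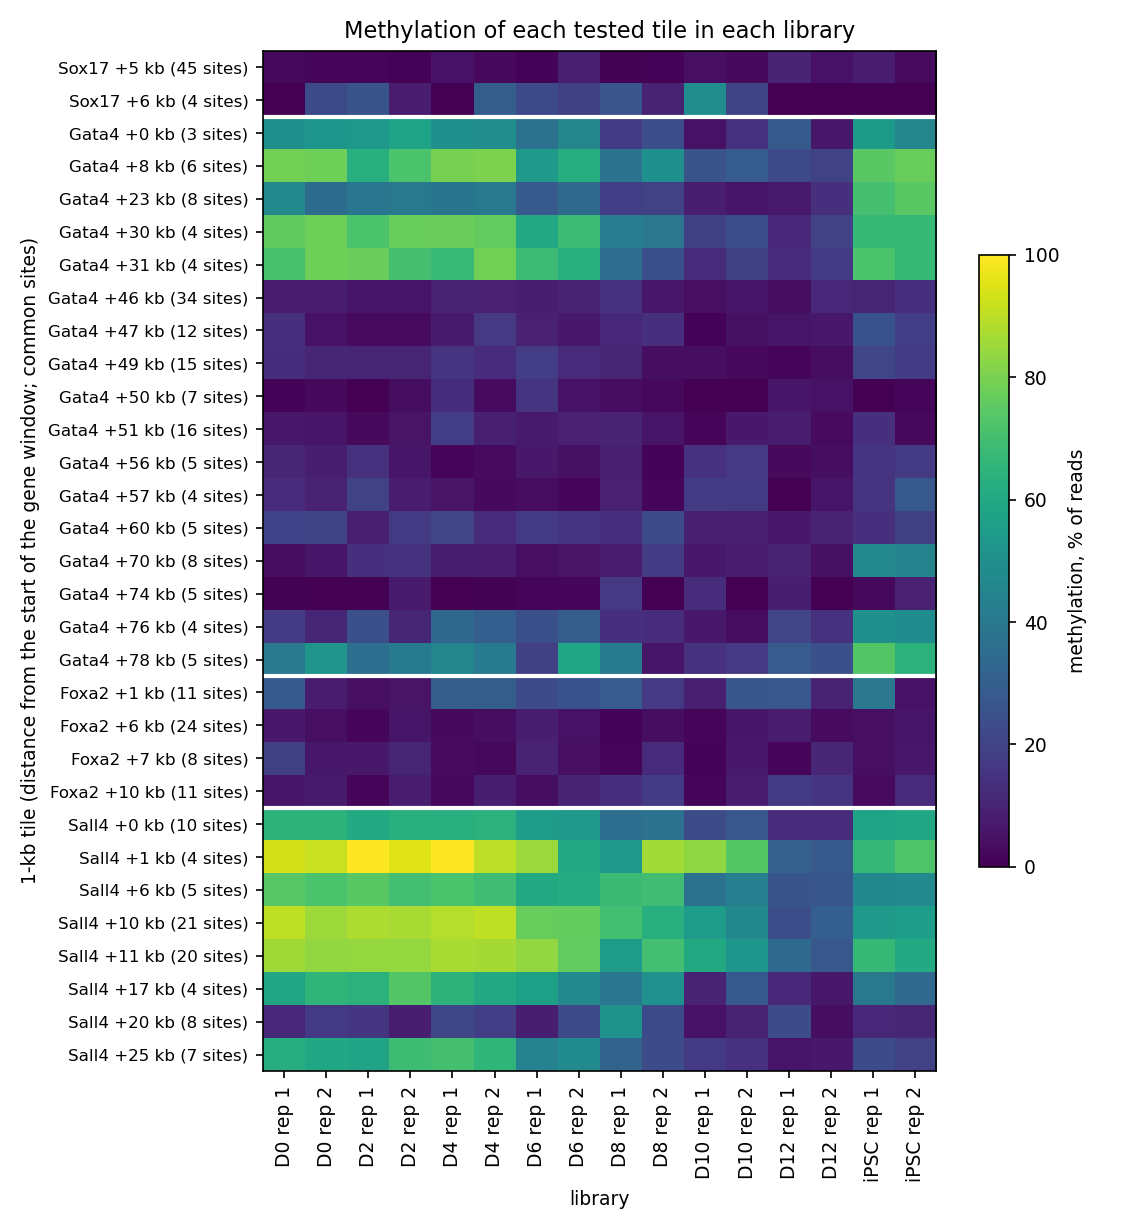
Methylation (% of reads, colour) of the 31 tested tiles (rows, named by gene, distance in kb from the start of the window, and number of common sites) in each of the 16 libraries (columns). In the heat map 7 of the 8 Sall4 rows and 5 Gata4 rows are bright from D0 to D4 and dark by D12, 2 Gata4 rows 70 and 76 kb into the window are brighter in iPSCs than in any other group, and the Sox17 and Foxa2 rows are dark or differ between replicates.

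In the first 4 days no tile of the 4 genes was called. At D2 and at D4 edgeR called 0 of 31 in either direction, with 3 and 2 tiles at an unadjusted p under 0.05, and the quasi-binomial model also called 0. Over all tiles 0.0488% were lower and 0% higher at D2, and 0.0763% and 0.00424% at D4. At D6, 3 of 31 were lower (21.3% of all tiles) and 0 higher (0.104%), with 8 at an unadjusted p under 0.05. These were Gata4 63440001 (-20.4 points, adjusted p = 0.0139) and Sall4 168592001 (-11.5, 0.0498) and 168596001 (-11.4, 0.0191). The D6 count was 0 without D0 replicate 1 or D6 replicate 1 and 1 without either of the other libraries, and the quasi-binomial model called 1 tile higher.

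The number of tiles below D0 then grew to 9 of 31 at D8 (72.3% of all tiles), 13 at D10 (81.6%) and 13 at D12 (82.7%), by edgeR with adjustment over all tiles. None was called higher at D8, D10 or D12 (0.544%, 0.201% and 0.649% of all tiles), where 10, 16 and 15 tiles had an unadjusted p under 0.05 in either direction. The quasi-binomial model called 1 higher at D8 and 0 at D10 and D12. The sets of tiles called lower at D10 and D12 differed. Gata4 63510001 was called at D10 but not D12, and Sall4 168587001 at D12 but not D10. Without any 1 D0 or D10 library, Gata4 63492001 (-11.3 to -11.7 points) and 63510001 (-24.6 to -36.6) lost their D10 calls. With merged strands 63492001 was also not called at D10 (-9.58). At D8, Gata4 63432001 lost its call without D0 replicate 1 (-32.1), D0 replicate 2 (-29.4) or D8 replicate 1 (-27.7). Among tiles at 30% or more at D0, 3 of 13 were lower at D6, 9 at D8 and 12 at D10. Their median differences were -10.0, -22.8 and -39.5 points, against -11.4, -27.7 and -38.2 in such tiles of the genome. At D12, 12 of 13 were lower (98.2% of such tiles in the genome). Among those under 30% it was 0 of 18 at D6 (2.14%) and D8 (6.64%). At D10 (13.8%) and D12 (12.7%) it was 1 of 18. Of the 31 tiles 18 started under 30%, against 17134 of 94337 in the genome. Shares of all tiles thus compare unlike starting levels. A joint test for any difference among D0 to D12 passed in 17 of 31 tiles (85.1% of all tiles), which were 10 in Gata4 and 7 in Sall4. For the 2 Sox17 and 4 Foxa2 tiles it passed in 0, with 0 at an unadjusted p under 0.05.

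In iPSCs the tiles of Sall4 and Gata4 were called in opposite directions against D0. By edgeR 4 of 31 tiles were lower than at D0 (9.42% of all tiles), all 4 in Sall4, and 3 were higher (4.02%), all 3 in Gata4. Within the class at 30% or more, 4 of 13 were lower (11.1% of such tiles) and 1 higher (3.15%), and within the class under 30%, 2 of 18 were higher (7.94%). Against D12, 19 of 31 tiles were higher in iPSCs (79.8% of all tiles), 12 in Gata4 and 7 in Sall4, and 0 were lower (1.48%), with 20 at an unadjusted p under 0.05 and 0 lower in the quasi-binomial model. All 13 tiles at 30% or more at D0 were among the 19 (93.8% of such tiles). The comparisons with D0 share the D0 libraries, so they are not independent of each other.

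**Figure D3:**
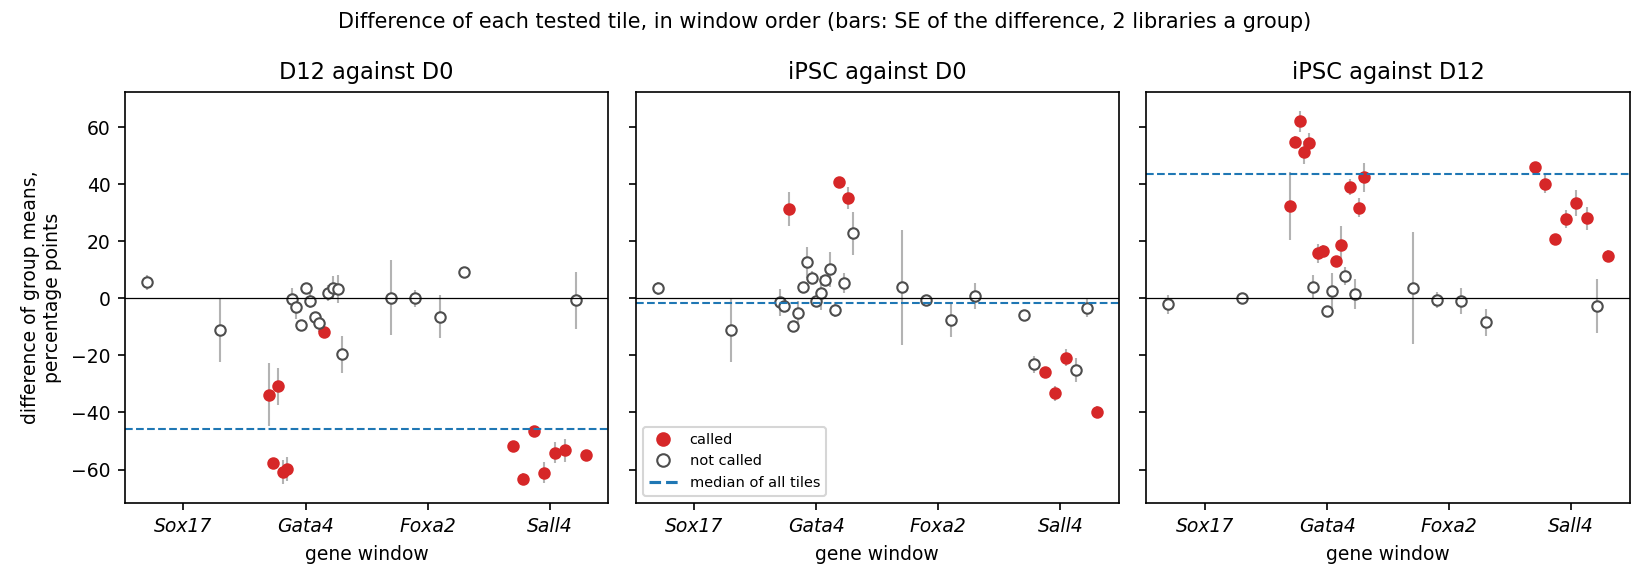
Difference of group means (percentage points, vertical axis) of each tested tile in window order (horizontal axis) for D12 against D0, iPSC against D0 and iPSC against D12; bars are the SE of the difference with 2 libraries a group, filled points are called tiles, and the dashed line is the median of all tiles. In the middle panel all 8 Sall4 tiles lie below 0 and 3 Gata4 tiles are called above it.

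Sall4, needed for the self-renewal of pluripotent cells, was methylated in most of its tested tiles in fibroblasts. Of its 8 tested tiles, 7 started between 61.1% and 92.6% (group means at D0). The tiles that could not be tested include lower ones, given below. All 7 were called lower at D12 (98.2% of tiles at 30% or more in the genome), with differences of -46.6 to -63.2 points. Their median difference was -54.1 points, against -50.0 in tiles of the same class in the genome. In iPSCs the differences from D0 ran from -5.69 to -39.9 points, with a median of -25.2 against -2.22 in the genome. Of the 7, 4 were called lower (11.1% of such tiles in the genome).

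The tile with the largest Sall4 difference at D12, 168587001, was at 93.7% and 91.5% at D0, 100% and 94.96% at D2, 100% and 90.2% at D4, and 84.8% and 60.5% at D6. It was at 53.4% and 86.2% at D8, 83.5% and 73.5% at D10, 30.9% and 27.9% at D12, with iPSCs at 66.7% and 72.3%. The D8 libraries lay far apart, and both D12 libraries lay under all others. D12 differed from D0 by -63.2 points ± 1.84 (SE; edgeR adjusted p = 0.00123). The tile had 4 common sites, which drew 47 to 228 reads in a library. The iPSC difference of -23.1 ± 3.02 was not called (adjusted p = 0.217), although both iPSC libraries lay under both D0 libraries.

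The tile 168611001 carried the largest Sall4 difference in iPSCs. It was at 62.4% and 59.8% at D0, 58.3% and 68.8% at D2, 70.4% and 65.3% at D4, and 44.5% and 48.3% at D6. It was at 31.7% and 23.1% at D8, 16.9% and 14.3% at D10, 5.49% and 6.96% at D12, with iPSCs at 22.9% and 19.6%. The iPSC libraries lay under all D0 to D6 libraries and above both D12 libraries. The differences from D0 were -54.9 points ± 1.48 at D12 (edgeR adjusted p = 2.38e-07) and -39.9 ± 2.10 in iPSCs (0.000252), so iPSCs held 34.7% of the D0 level. In iPSCs 6 of its 7 sites lay below D0 with no overlap of libraries, as did 35.3% of the common sites of all tiles at 30% or more at D0. Neighbouring sites share reads, so such counts are a description.

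Adjoining tiles in the middle of the Sall4 window were also called in iPSCs. The tile 168596001, with 21 common sites, was at 90.4% and 85.5% at D0, 87.7% and 86.8% at D2, 88.9% and 90.4% at D4, and 76.8% and 76.4% at D6. It was at 69.6% and 62.8% at D8, 55.0% and 46.8% at D10, 24.0% and 29.8% at D12, and 53.8% and 55.6% in iPSCs. Every library from D6 on was below the D0 libraries, and the iPSC libraries were above those of D12. The iPSC difference from D0 was -33.3 points ± 2.60 (edgeR adjusted p = 0.000169), and 17 of the 21 sites were lower without overlap (35.3% in tiles of the same class).

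Its neighbour 168597001, with 20 common sites, was at 85.7% and 83.8% at D0, 84.1% and 84.2% at D2, 87.2% and 86.3% at D4, and 83.8% and 75.8% at D6. It was at 54.8% and 70.0% at D8, 60.8% and 52.6% at D10, 34.2% and 27.1% at D12, with iPSCs at 66.8% and 61.2%. The iPSC libraries lay between the D0 and the D12 libraries. The iPSC difference from D0 was -20.8 points ± 2.98 (edgeR adjusted p = 0.00943), and the call was lost without D0 replicate 1 (adjusted p = 0.0776) or iPSC replicate 2 (0.0816).

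The tile 168592001 was at 73.9% and 71.8% at D0, 74.6% and 70.2% at D2, 71.6% and 69.2% at D4, and 60.8% and 61.7% at D6. It was at 68.2% and 69.3% at D8, 37.1% and 43.0% at D10, 25.9% and 26.6% at D12, and 46.8% and 47.5% in iPSCs. Both D8 libraries lay above both D6 libraries here, a step that was not tested. The iPSC difference from D0 was -25.7 points ± 1.11 (edgeR adjusted p = 0.00171). The call of this tile at D6 was lost in each fit without 1 of the D0 or D6 libraries (adjusted p = 0.133 to 0.209) and under the quasi-binomial model (0.0658).

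The other Sall4 tiles showed a smaller or uncalled difference in iPSCs. The tile 168586001, at the edge of the window, went from 64.6% at D0 to 12.7% at D12 and 58.9% in iPSCs (group means), where the difference from D0 of -5.69 points was not called (edgeR adjusted p = 0.242). The tile 168603001 went from 62.3% to 9.05% and 37.1%, and its iPSC difference of -25.2 points missed the threshold (adjusted p = 0.0682) but was called by the quasi-binomial model (0.0330), with merged strands (0.0220) and with the compared groups fitted alone (0.0360). The 1 Sall4 tile that was low at D0, 168606001, was at 11.02% and 17.1% at D0, 51.2% and 22.6% at D8, 23.0% and 3.86% at D12, and 11.3% and 10.3% in iPSCs. It was called in no comparison with D0, and its replicates differed widely at D8 and D12.

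Among the 9 Sall4 tiles with listed sites that were not tested, 168604001 was at 22.5% and 25.0% at D0 and 8.54% and 9.40% in iPSCs, over 6 to 11 listed sites that differ between libraries. The tile 168608001 was at 44.3% and 46.7% at D0 and at 0% (a count that allows up to 23.1%) and 5.88% in iPSCs, where each library listed 1 site. The tile 168600001 was at 86.8% and 87.8% at D0 and at 72% in the only iPSC library that listed it. In these 3 tiles the iPSC values lay below both D0 libraries, and so did those of 168613001 (51.2% and 47.8% at D0, 25% and 44.3% in iPSCs) and 168609001 (18.8% and 20.8%, then 18.2% and 0.568%). The tile 168612001 differed, at 89.3% and 92.5% at D0 and at 95.7% in its only iPSC library, over 4 sites and 47 reads. Several untested tiles were low at D0, namely 168604001, 168605001 (16.1% in its only D0 library), 168607001 (22.6% and 2.59%) and 168609001. At D12 the tile 168607001 was at 37.3% and 37.5%, above both D0 libraries, and 168609001 at 41.3% and 17.8%. The tile 168604001 was lower at D12, at 15.1% and 15.9%. The sites listed differ between libraries, so these differences were not tested.

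**Figure D4:**
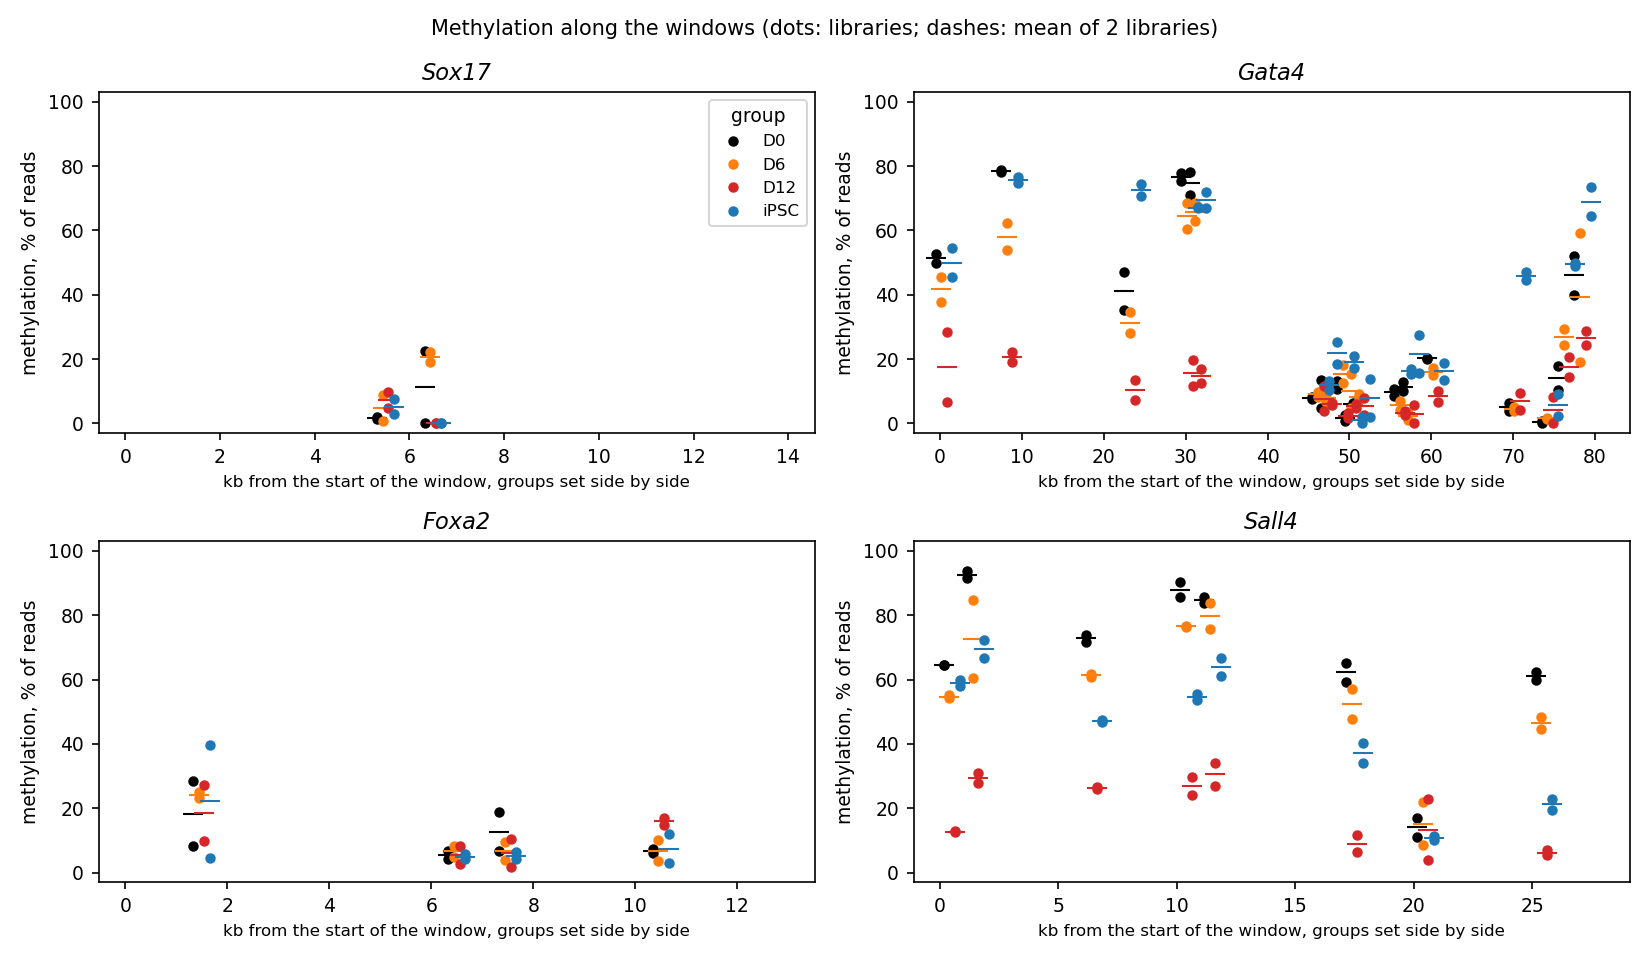
Methylation (% of reads, vertical axis) of the tested tiles along each window (horizontal axis, kb from the start of the window, with the groups set side by side) for D0, D6, D12 and iPSC; dots are libraries and dashes the mean of 2 libraries. In Sall4 the iPSC dashes lie between those of D0 and D12 at 7 of 8 tiles, and in Gata4 the iPSC dots stand highest of the 4 groups at 23, 70 and 76 kb, among others.

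In fibroblasts Gata4, a factor of heart and endoderm, had methylated tested tiles early in its window and mostly low ones further on. Of its 17 tiles, 11 were under 30% at D0 (0.355% to 20.2%, group means), and 6 lay between 41.2% and 78.5%. The low tiles ran from 63478001 to 63492001 and, further on, 63502001, 63506001 and 63508001. Beyond these, only 63510001 among the tested tiles was at 30% or more (46.0% at D0). The untested tile 63485001 lies inside the low stretch but was at 32.4% and 57.1% at D0, over 7 and 1 sites. At D12 this tile was at 94.5% and 23.8%. At D12, 5 of the 6 methylated tiles were called lower (98.2% of such tiles in the genome), with differences of -30.9 to -60.9 points. Of the 11 low tiles 1 was called (12.7% of tiles under 30% in the genome), 63492001, from 20.2% to 8.44% (edgeR adjusted p = 0.0143). This call was lost without D12 replicate 1.

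The largest Gata4 difference at D12 was in the tile 63462001. It was at 75.4% and 77.8% at D0, 71.7% and 76.7% at D2, 77.3% and 75.9% at D4, and 60.3% and 68.6% at D6. It was at 42.0% and 39.7% at D8, 19.0% and 24.0% at D10, 11.7% and 19.7% at D12, with iPSCs at 67.1% and 66.9%. The D12 and D0 libraries lay far apart, and the iPSC libraries stood just under the D0 libraries. D12 differed from D0 by -60.9 points ± 4.21 (edgeR adjusted p = 5.93e-07), and the iPSC difference of -9.62 ± 1.23 was not called (0.220). The adjoining tile 63463001 and the tile 63440001 had iPSC means of 69.3% and 75.7%, against 74.6% and 78.5% at D0, and were not called in iPSCs either.

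The gains in iPSCs lay elsewhere in the window. The largest was in 63502001, a tile with 8 common sites that was low in all other groups. It was at 3.89% and 6.21% at D0, 13.8% and 14.6% at D2, 8.39% and 7.85% at D4, and 4.02% and 5.17% at D6. It was at 8.16% and 17.3% at D8, 6.96% and 7.66% at D10, 9.48% and 4.31% at D12, and 47.0% and 44.7% in iPSCs. Both iPSC libraries stood far above all 14 others. The difference from D0 was +40.8 points ± 1.65 (edgeR adjusted p = 0.00015), and 7 of the 8 sites were higher without overlap of libraries (14.4% of the common sites of all tiles under 30% at D0).

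The tile 63508001 also gained in iPSCs but moved more in the days before. It was at 17.9% and 10.5% at D0, 24.4% and 10.3% at D2, 33.3% and 29.9% at D4, and 24.5% and 29.4% at D6. It was at 14.0% and 12.5% at D8, 6.71% and 3.33% at D10, 20.7% and 14.4% at D12, with iPSCs at 50.0% and 48.8%. The iPSC libraries were again the highest, and the D4 and D6 libraries lay above those of D0 without a call. The iPSC difference from D0 was +35.2 points ± 3.71 (edgeR adjusted p = 0.00405), and the 4 sites, from 2 CpGs, drew 72 to 296 reads in a library.

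Between these 2 tiles the picture was mixed. The tile 63506001 was at 0.709% and 0% (a count that allows up to 2.50%) at D0 and at 2.27% and 9.09% in iPSCs and was not called (edgeR adjusted p = 0.378). The untested tile 63503001, with 2 common sites, was at 5.16% and 3.80% at D0 and 26.7% and 27.9% in iPSCs, and 63507001, also with 2 common sites, at 5.11% and 3.33% at D0 and 17.9% and 31.1% in iPSCs. In both untested tiles the iPSC libraries lay above the D0 libraries. Elsewhere in the window the untested 63468001 was also higher in iPSCs (75.6% and 69.1%, against 61.7% and 51.0% at D0). In 63493001 the groups overlapped (15.7% and 20.5%, against 10.9% and 22.5%). The only iPSC library that listed 63438001 was lower, at 50% against 61.8% and 60.8%. The tile 63510001 at the far end had an iPSC difference of +22.8 points ± 7.49 that was not called (adjusted p = 0.405), and its replicates were as far apart as 19.1% and 59.3% at D6.

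The third gain, in 63455001, was in a tile that was already methylated. It was at 47.0% and 35.4% at D0, 39.4% and 40.6% at D2, 39.0% and 40.4% at D4, and 28.0% and 34.6% at D6. It was at 18.3% and 19.4% at D8, 8.39% and 5.74% at D10, 7.14% and 13.5% at D12, and 70.7% and 74.3% in iPSCs. This tile thus lost methylation up to D10 and D12 and stood above its D0 level in iPSCs. The differences were -30.9 points ± 6.60 for D12 against D0 (edgeR adjusted p = 3.14e-05) and +31.3 ± 6.07 for iPSC against D0 (0.00378).

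Some of the low tiles of Gata4 were also called higher in iPSCs than at D12. These were 6 of the 11 tiles under 30% at D0 (16.7% of such tiles in the genome). The median difference of the 11 was +13.0 points, against -0.598 in the genome, and 63482001 went the other way by -4.45 points, without a call. Besides 63502001 and 63508001 the called tiles were 63479001, 63481001, 63488001 and 63489001, with iPSC means of 16.2% to 21.8% and D12 means of 2.46% to 6.04%. Against D0 none of these 4 was called, with differences of +6.54 to +12.8 points. The calls of 63479001, 63488001 and 63489001 against D12 were lost without 1 library, namely iPSC replicate 1 (adjusted p = 0.0509), D12 replicate 1 (0.0515), and D12 replicate 1 or iPSC replicate 2 (0.0550 and 0.0814). Those of 63488001 and 63489001 were also lost with merged strands (0.167 and 0.192), while 63481001 kept its call in all fits run for single tiles.

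The day of loss differed between tiles. The day was taken as the first on which a tile called lower at D12 was under the midpoint of its D0 and D12 means and stayed there. For the 6 Gata4 tiles it was D8 in 5 and D10 in 1, and for the 7 Sall4 tiles D8 in 2, D10 in 4 and D12 in 1. Over all tiles called lower at D12 in the genome it was D6 in 5.07%, D8 in 59.1%, D10 in 28.5% and D12 in 5.84%. This is a description, and the difference between the 2 genes was not tested.

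Sox17, a factor of endoderm and of arterial and haematopoietic cells, was measured mainly in 1 CpG-rich tile. The tile 4562001, with 45 common sites, was at 1.96% and 1.46% at D0, 9.87% and 4.75% at D12, with iPSCs at 7.45% and 2.98%. The D12 libraries lay above the D0 libraries but far from each other, and D6 replicate 2 stood at 8.95% beside 0.815% in replicate 1. The D12 difference of +5.60 points ± 2.58 was not called (edgeR adjusted p = 0.0512), and it is also under the 10-point minimum. By site, 23 of the 45 sites were higher at D12 than at D0 with no overlap of libraries and 0 were lower, against 19.3% and 16.3% of the common sites of all tiles under 30%, and sites on the same fragment share reads.

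The other Sox17 tile, 4563001, held the largest difference of the window but had replicates that disagreed. It was at 0% and 22.4% at D0, 26.0% and 7.77% at D2, 0% and 29.5% at D4, and 22.2% and 19.0% at D6. It was at 26.3% and 9.88% at D8, 49.2% and 20.5% at D10, and 0% in both libraries at D12 and in iPSCs. The counts of 0 allow levels up to 2.73% in D0 replicate 1, 2.26% in D4 replicate 1, 2.19% and 3.80% at D12, and 5.56% and 5.00% in iPSCs, for counting error only. The difference of -11.2 points ± 11.2 at D12 and in iPSCs was within the spread of the D0 libraries (edgeR adjusted p = 0.137 and 0.476), and the D12 difference was -22.4 points (0.0466) without D0 replicate 1.

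Beyond these, the Sox17 window had 3 tiles with listed sites that could not be tested. In 4566001 the D12 libraries stood at 24.0% and 63.0% and the D0 libraries at 10.8% and 20.0%, over 8 to 20 sites that differ between libraries, and no iPSC library listed it. In 4567001 1 library each of D0, D2, D4, D6, D8 and D12 listed sites, at 24.0%, 22.0%, 6.01%, 28.3%, 30.5% and 26.2%. No library of D10 or iPSC listed a site there. In iPSCs the low level of 4562001 was also seen in 4563001 (0% in both libraries). Whether it extended further across the window could not be seen in iPSCs.

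Foxa2, a factor that opens chromatin at endoderm genes, had 4 tested tiles, all under 30% at D0, and none was called in any comparison (0 at an unadjusted p under 0.05 in D12 or iPSC against D0, by edgeR). The tile that holds the placed start site, 147887001, was at 18.8% and 6.62% at D0, 6.67% and 10.3% at D2, 3.11% and 2.26% at D4, and 9.60% and 4.01% at D6. It was at 1.45% and 12.3% at D8, 0.885% and 6.99% at D10, 1.88% and 10.6% at D12, with iPSCs at 4.17% and 6.33%. The D0 replicates differed more than the group means did, and D12 overlapped D0. The iPSC difference was -7.44 points ± 6.16 (edgeR adjusted p = 0.605). The common sites of this tile all lay outside the placed promoter, whose CpGs were listed in D8 replicate 1 alone. In that library the promoter CpGs were at 62.5% and the common sites of the tile at 1.45%.

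The largest Foxa2 difference at D12 lay in 147890001. It was at 6.02% and 7.39% at D0, 1.26% and 7.89% at D2, 1.99% and 8.57% at D4, and 3.52% and 10.1% at D6. It was at 13.9% and 17.6% at D8, 1.19% and 8.00% at D10, 17.0% and 14.9% at D12, with iPSCs at 3.05% and 11.96%. The D8 and D12 libraries lay above those of D0, with D10 back at the D0 level in between. The D12 difference was +9.24 points ± 1.28 (edgeR adjusted p = 0.188), and 9 of its 11 sites, which may share reads, were higher than at D0 without overlap (19.3% in tiles of the same class).

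The remaining tested Foxa2 tiles differed in how much they moved. The tile 147886001, with 24 common sites, stayed between 0.967% and 8.35% in all libraries. The tile 147881001 was at 28.4% and 8.15% at D0, 4.21% and 5.12% at D2, 29.56% and 29.6% at D4, and 23.1% and 25.2% at D6. It was at 28.6% and 16.5% at D8, 8.68% and 26.7% at D10, 27.2% and 10% at D12, and 39.7% and 4.70% in iPSCs. Its replicates lay close together at D2, D4 and D6 and far apart at D0 and from D8 on. The differences from D0 were -13.6 points ± 10.13 at D2 (unadjusted p = 0.106 by edgeR, adjusted p = 1) and +11.3 ± 10.12 at D4 (0.341 and 1), neither called.

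Of the 4 Foxa2 tiles with listed sites that were not tested, 147885001 was the most methylated. It was listed in 1 library each of D0 (34.7%), D4 (43.7%), D8 (42.5%), D10 (44.3%) and D12 (29.2%) and in no iPSC library. The tile 147888001, which holds the placed promoter's far end, stood at 52.3% in D8 replicate 1. In the other libraries that listed it, the level was between 0% (a count that allows up to 9.09%) and 26.2%. D8 replicate 1 listed 7 sites there, among them promoter CpGs listed in no other library, and the others listed 3 to 6. These levels thus cover unlike sites. The tile 147889001 was at 13.0% and 15.2% at D0 and 34.0% and 15.4% in iPSCs, over 2 to 4 sites. The low level of the common sites thus did not hold for every listed stretch of the window.

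Other genes of primitive, extraembryonic and definitive endoderm were read in the same way from a list of 30. The promoter table held a sequence for 22 of them, 13 could be placed, and 9 genes had a tested tile at the promoter, 10 tiles in all, each under 30% at D0. At D12 edgeR called 1 of 10 lower and 0 higher (12.7% and 3.55% of all tiles under 30%), with 1 at an unadjusted p under 0.05, and the quasi-binomial model called 1 higher. In iPSCs 0 of 10 were called against D0 in either direction (1.99% and 7.94%), with 2 at an unadjusted p under 0.05. The median difference was +1.18 points at D12 and -1.45 in iPSCs, against -0.0105 and -0.298 over all tiles under 30% at D0. At the days between, edgeR called 3 of 10 lower at D6 (2.14% of all tiles under 30%), 1 at D8 (6.64%) and 3 at D10 (13.8%).

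The 1 tile called at D12 was that of Amn, which encodes amnionless, a partner of the receptor cubilin in visceral endoderm. It was at 26.7% and 21.9% at D0, 10.7% and 12.5% at D6, 5.00% and 5.20% at D12, with iPSCs at 19.9% and 20.7%. The D12 libraries lay under all D0 and iPSC libraries, and D12 differed from D0 by -19.2 points (edgeR adjusted p = 2.97e-06). It was also the 1 tile called at D8, and it was called at D6 (-12.6 points) and D10 (-17.8). The next largest decreases at D12, for Foxa3 (-6.64 points) and the keratin gene Krt18 (-4.60), were not called (0.156 and 0.196), while both were called lower at D10, with differences of -14.1 points (edgeR adjusted p = 0.00714) and -10.3 points (0.00082). The third call at D6, beside Amn and Nid1, was the tile 6415001 of Dab2, an endocytic adaptor, at -12.3 points (0.0330).

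Of the increases at D12, Nid1, the gene of the basement membrane protein nidogen, had the largest, from 24.8% and 25.0% to 63.9% and 50.0%. With 3 sites and 36 to 109 reads in these libraries the difference of +32.1 points was not called (edgeR adjusted p = 0.110), and the only call of this tile was in the other direction, at D6, where both libraries were at 0%, counts that allow up to 8.57% and 2.97% (-24.9 points, edgeR adjusted p = 0.0409). The place of this promoter rests on 17 matched CpGs against 16 at the next best position. Col4a1 and Col4a2, collagen IV genes whose placed promoters share 1 tile, were at 6.34% and 1.94% at D0 and 7.22% and 20.2% at D12 (+9.56, adjusted p = 0.339). At D10 their tile stood at 29.0% and 49.4% and was the 1 of 10 called higher (1.11% of all tiles under 30%), +35.0 points against D0 (edgeR adjusted p = 0.0482). The tile 110573001 of Pth1r, the parathyroid hormone receptor gene, differed by +2.81 points (0.107).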

How the data were processed

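RRBS libraries of 8 groups, 2 each, were analysed. The submitters' processing notes name fastp 0.20.1, methylKit, Bowtie2 and Bismark 0.23.0, and the genome build GRCm39. The sources used here do not give the trimming, the handling of duplicates or the treatment of filled-in fragment ends, and cytosines added at MspI ends could shift the level at those sites. The deposited tables, 1 per library, list the coverage of each CpG site as a count of reads, per the file headers, and the authors' freqC and freqT values are the percent of reads called C and T. The smallest listed coverage was 10 reads. Strands were kept apart. Per the labels' protocols no molecular identifiers were used, and reads were not taken as independent molecules.

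Methylated and unmethylated read counts were computed from coverage and percent. Sites with at least 10 reads in all 16 libraries were summed in 1-kb tiles with at least 3 such sites. edgeR 4.0.16 (R 4.3.3) quasi-likelihood tests were fitted to 94337 tiles with an effect per library, a methylation coefficient per group, a common dispersion and 8 residual degrees of freedom, and adjusted by Benjamini-Hochberg over all tiles. The joint test of D0 to D12 used the adjusted p alone. The fit was tested on simulated data. Levels are methylated over all reads. Promoters were placed where at least 5 CpGs matched, no listed site fell off a CpG and 1 position matched best. Alternatives were a quasi-binomial model, at least 20 reads, merged strands, at least 1 site per tile, tiles shifted by 500 bases, a replicate block, sites common to the compared groups, these groups alone, a minimum of 25 points and leaving out each library. For the window levels the mean of the percent values of the sites and every listed site were also tried.

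Tiles with all values given are those with a placed start site, those with the largest difference per gene at D12 and in iPSCs against D0, and those called in iPSCs against D0. From the endoderm list the rule names the genes called in iPSCs and the 3 largest D12 differences in each direction. The windows and the list were chosen with earlier results of these data known. Other tiles, and Dab2, are named to account for each window and count, after their values were seen.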

Additional observations from a re-analysis of the deposited data

How the results depend on the processing

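Of 1208 values of single tiles under other settings, 1148 kept their direction and side of the threshold, 49 lost and 11 gained a call, and 0 changed sign after a call. Of 354 counts and window values, 308 were within the limits set and 46 moved. Requiring at least 20 reads per site left 13 of 31 tiles (47199 of 94337 in the genome), and with these fewer tiles the counts of lower tiles were 1 at D6, 3 at D8, 3 at D10, 3 at D12 and 0 in iPSCs against D0. The counts of higher tiles were then 1 for iPSC against D0 and 6 for iPSC against D12, and the joint test passed in 6. With at least 1 site per tile, 5 tiles were higher in iPSCs than at D0. The D6 count of lower tiles was 1 with sites common to the compared groups or these groups alone and 0 with a minimum of 25 points. The quasi-binomial model called 1 tile higher at D6, 1 at D8 and 1 of the endoderm list at D12. Leaving out 1 library gave 0 to 1 lower tiles at D6, 0 to 2 higher at D8 (1 without D8 replicate 1 and 2 without D8 replicate 2), 0 to 1 higher at D10 (1 without D0 replicate 2), 3 to 4 lower and 3 higher in iPSCs against D0, and 12 to 15 lower at D12. Of the calls in iPSCs against D12, those of Gata4 63432001 (without iPSC replicate 1, adjusted p = 0.0519), Gata4 63510001 (without D12 replicate 2 or iPSC replicate 1, 0.0643 and 0.0840) and Sall4 168587001 (without any 1 of the 4 libraries, 0.0826 to 0.150) were also lost. The causes of the changes other than fewer tiles or libraries were not tested.

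Window differences moved with the sites counted. For Sall4, D12 against D0 (-50.3 points) was -52.8 with 20 reads, -48.7 with merged strands, -41.2 with sites of the compared groups, -48.3 as a mean of site percents and -41.2 over every listed site. iPSC against D0 (-19.2) was -12.9 with 20 reads, -21.6 with merged strands, -21.6 as a mean of site percents and -20.8 over every listed site. iPSC against D12 (31.1) was 39.8, 27.1, 23.9, 26.7 and 20.5 in the order of the first of these. For Gata4, D12 against D0 (-11.3) was -13.0 with 20 reads and -9.09 as a mean of site percents, iPSC against D0 (8.55) was 6.90 over every listed site, and iPSC against D12 (19.8) was 21.1, 21.4, 17.7 and 18.6 with 20 reads, sites of the compared groups, site percents and every listed site. For Sox17, iPSC against D0 (2.57) was -0.597 with merged strands and -2.67 over every listed site, iPSC against D12 (-1.92) was -10.5 over every listed site, and D12 against D0 (4.49) was 7.80. For Foxa2, D12 against D0 (0.322) was 2.82 with merged strands, 2.26 with sites of the compared groups, 1.42 as a mean of site percents and 3.55 over every listed site, and -2.95 to 3.60 with 1 library left out.

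No effect of the replicate number of the labels was seen: over 28 pairs of groups, deviations of same-numbered libraries correlated with r between -0.0144 and 0.00778. These values cannot tell whether same-numbered libraries came from the same culture. With the replicate block the count of lower tiles was 2 in place of 3 at D6, and it stayed at 13 at D12 and at 4 in iPSCs against D0, with 3 higher. The Foxa2 promoter sites gave no comparison under any setting, because 1 library listed them.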
